A study of Mus musculus with 31 samples.

Results

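Regulators of G-protein signaling (RGS proteins) shorten the signals that G-protein-coupled receptors send. The genes described are *Rgs1*, *Rgs2*, *Rgs3*, *Rgs4*, *Rgs5*, *Rgs10*, *Rgs16*, *Rgs18* and *Rgs19*, chosen by name from the symbol column of the gene count table. They are 9 of the 39179 genes in that table. Each was found under a single identifier.

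When a receptor is activated, the alpha subunit of its G protein binds GTP, leaves the beta and gamma subunits, and both parts act on effectors such as adenylyl cyclases, phospholipase C and ion channels. RGS proteins bind the active alpha subunit through a shared RGS domain and speed its GTP hydrolysis, which ends the signal. In skin and tumors, RGS genes are known from leukocytes answering chemokines, from platelets, and from the mural cells that wrap small vessels, and *Rgs2* is a known glucocorticoid (GC)-induced gene in airway cells.

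The series holds bulk RNA sequencing of 20967 melanoma, a mouse line derived on C57BL/6 from animals carrying Nras+LSL-G12D;Tyr::CreERT2+/o. The first is an *Nras* allele with the G12D mutation, and in the second Cre recombinase is driven by the tyrosinase promoter. Whole tumors were grown intradermally in wild-type C57BL/6 mice, so each tumor sample also holds host cells with an intact GC receptor gene. 4 kinds of tumor were collected, with 5 tumors in each group: parental tumors under control cream, parental tumors under topical GC (clobetasol propionate ointment at 0.05%, put on 3 times a week), GR KO tumors under control cream and GR KO tumors under topical GC. The cultured groups were parental cells in DMSO (n = 3), parental cells in GC (n = 2), GR KO cells in DMSO (n = 3) and GR KO cells in GC (n = 3). GR KO cells were edited in the GC receptor gene with CRISPR, and their library names carry a single clone label, 3-22, so the genotype and the clone cannot be told apart. Cultures were kept in GC (clobetasol propionate) or DMSO for 48 h, and the dose is 10 µM in the treatment label and 1 µM in the library names. Host age and the time of tumor harvest were not stated. Total counts per sample ran from 15528066 to 26386770 in tumors and from 14441166 to 22463188 in cultured cells.

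Levels are given as CPM, counts scaled to the size of each library and between samples by the trimmed mean of M-values (TMM) over all 31 samples. The libraries read the 3′ ends of transcripts, so a member's level was compared between samples and not with that of another gene. In marker lists, the most abundant gene is the one with the highest mean CPM, named to show what carries the sum. Reads were not collapsed by molecular identifiers, and a count of 0 allows up to 3 counts, which was 0.108 to 0.216 CPM in tumor libraries and 0.139 to 0.213 CPM in culture libraries, for counting error alone. Differences were tested with edgeR across all genes that passed a filter on low counts, with p-values adjusted by the Benjamini-Hochberg method over those genes. A gene was called a differentially expressed gene (DEG) at an adjusted p below 0.05 and a fold of at least 1.5. Every effect size is a log2 fold change with its standard error (SE). All 9 genes passed the filter in tumors (15919 genes tested). In cultured cells 5 passed (*Rgs2*, *Rgs3*, *Rgs10*, *Rgs16* and *Rgs19*, among 12525 genes tested), and *Rgs1*, *Rgs4*, *Rgs5* and *Rgs18* were too low to test there.

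The labels were checked on the GC receptor gene *Nr3c1* and on *Tsc22d3*, a direct target of the receptor. Tags of *Nr3c1* remained in GR KO cells, at 25.8, 21.6 and 16.6 CPM in DMSO against 33.9, 30.6 and 36.3 CPM in parental cells. A count of 3′ tags does not show whether the edited transcript still codes for a receptor. By the methods, clones were screened for the receptor protein on western blots, which the count table does not hold. *Tsc22d3* stood at 120 and 116 CPM in parental cells under GC against 10.8 to 15.7 CPM in DMSO, and at 14.4 to 21.1 CPM in GR KO cells under GC against 16.6 to 19.8 CPM in DMSO. In tumors these genes do not separate the labels in the same way. *Tsc22d3* stood at 42.5 to 87.7 CPM in parental controls, 174 to 461 CPM under GC in parental tumors, 44.4 to 94.1 CPM in GR KO controls and 166 to 247 CPM under GC in GR KO tumors, so it rose under GC in both genotypes (edgeR adjusted p = 1.61e-05 and 0.000403). *Nr3c1* was lower in GR KO controls (20.3 to 33.6 CPM) than in parental controls (43.9 to 62.8 CPM), and overlapped between GR KO (21.4 to 57.7 CPM) and parental (23.5 to 54.2 CPM) tumors under GC. These genes therefore do not check the GR KO label of tumors under GC. The label of melanoma rests on few marker counts in culture, where *Sox10*, *Dct*, *Tyr* and *Mlana* were at 0 in every sample. *Mitf* was the most abundant of the 7 melanocyte lineage markers in every group, and the list summed to 25.3 to 56.4 CPM in tumors, 9.44 to 12.1 CPM in parental cells and 3.19 to 5.62 CPM in GR KO cells. *Tyr* was at 0 in tumors too.

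The GR KO control tumors stood apart from the other tumor libraries. After counts were drawn down to equal depth, 13399, 14794, 15142, 16780 and 14265 genes had a count in GR KO control tumors 1 to 5, against 15155 to 16916 genes in the other 15 tumors. The 100 most abundant genes took 37.6%, 34.0%, 31.4%, 24.3% and 38.4% of the counts in these tumors, against 23.7% to 29.9% in the others. GR KO control tumor 4 was therefore unlike the rest of its group and like the other 15 tumors. For the *Rgs* genes described, comparisons that use this group are given with and without that tumor where it decides a call. All 5 tumor comparisons were also run with the number of genes at equal depth as a covariate. For other genes, such as those of the pathway and marker lists, no value without that tumor or with the covariate is given.

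**Figure D1:**
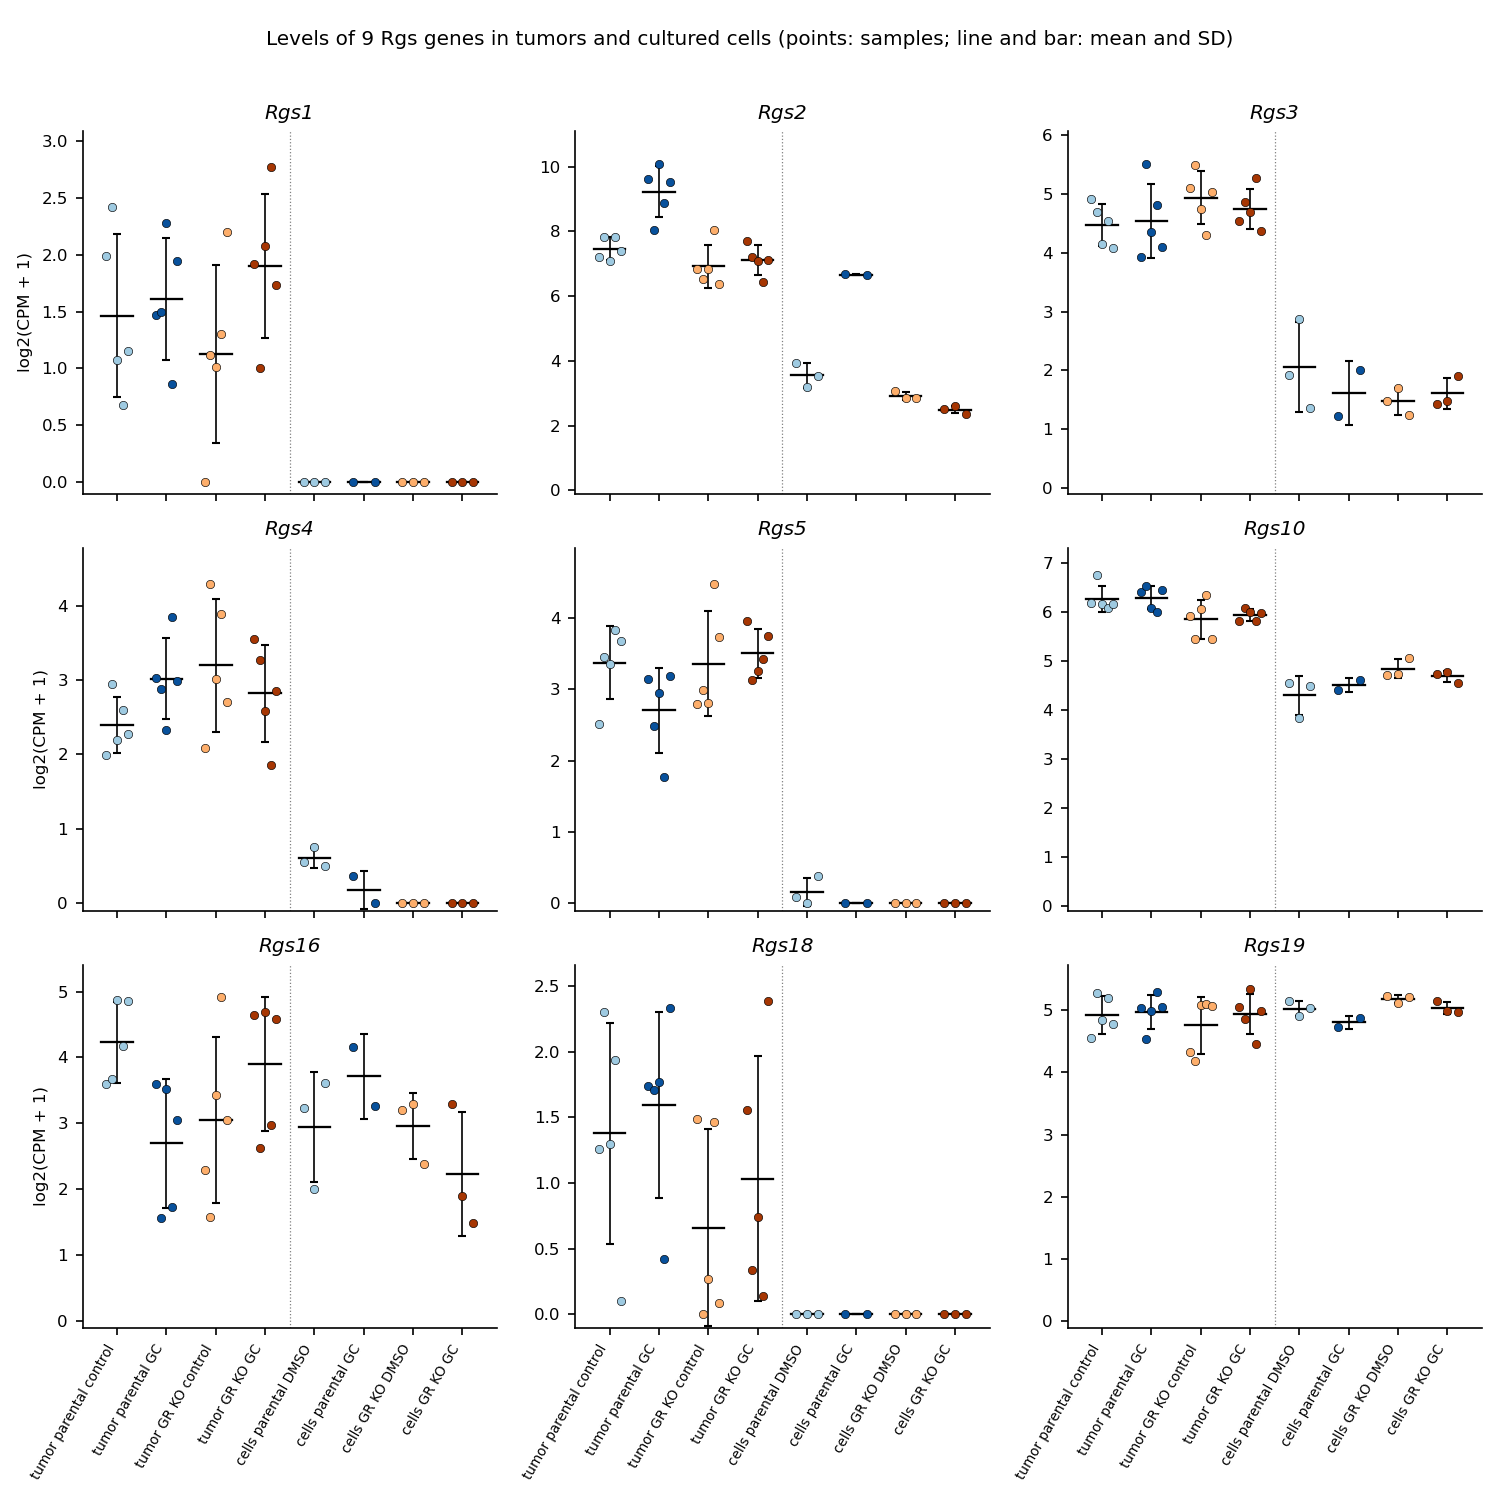
Levels of the 9 *Rgs* genes in the 20 tumors and 11 cultures, as log2(CPM + 1), with a point for each sample, a line at the group mean and a bar for the SD. *Rgs2* in the parental GC tumors sits above all other tumor groups by mean, and *Rgs1* and *Rgs18* are at 0 in every culture.

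Whether topical GC alters RGS transcripts in tumors whose cancer cells can sense it is asked by setting parental GC tumors against parental control tumors. *Rgs2* encodes a small RGS protein with a preference for the Gq class of alpha subunits, which drive phospholipase C. It was the member that separated these groups, rising in all treated tumors. Another small member, *Rgs16*, which acts on Gi and Gq alpha subunits, had low values in treated tumors without reaching the threshold.

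*Rgs2* (ENSMUSG00000026360) stood at 146, 227, 134, 227 and 165 CPM in parental control tumors 1 to 5. Under GC it stood at 783, 264, 1085, 464 and 739 CPM in parental tumors 1 to 5. All 5 treated tumors were above all 5 controls, and GC tumor 2 was the nearest to them. The mean was 667 ± 315 CPM (SD, n = 5) under GC and 180 ± 44.5 CPM (SD, n = 5) in controls, a log2 fold change of 1.88 (SE 0.33, edgeR adjusted p = 0.00487), or 3.69-fold. *Rgs2* was the single DEG among the 9 members (1 of 9), where 0.779% of all genes tested were DEGs. In a fit of the parental tumors alone, without any GR KO library, the log2 fold change was 1.89 (edgeR adjusted p = 0.0149).

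*Rgs16* (ENSMUSG00000026475) stood at 11.1, 11.7, 28.2, 17.1 and 27.9 CPM in parental control tumors and at 11.1, 1.97, 10.5, 2.31 and 7.27 CPM under GC. Of the 5 GC tumors, 4 were below every control, and the remaining GC tumor overlapped the lowest control. The log2 fold change was −1.56 (SE 0.60, edgeR adjusted p = 0.232). GC tumors 2 and 4, which had the lowest *Rgs16*, also had the fewest genes at equal depth in their group, 15794 and 15799 against 16668 to 16916. With the number of genes as a covariate the log2 fold change was −2.06 (edgeR adjusted p = 0.0131), which passed the threshold.

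The 8 members that were not DEGs had edgeR adjusted p between 0.232 and 0.983. *Rgs4*, a small RGS protein for Gi and Gq known from neurons, stood at 2.97 to 6.73 CPM in controls and 4.04 to 13.5 CPM under GC (log2 0.78, SE 0.44, edgeR adjusted p = 0.436). *Rgs5*, a gene known from pericytes, stood at 4.73 to 13.3 CPM in controls and 2.41 to 8.12 CPM under GC (log2 −0.74, SE 0.38, edgeR adjusted p = 0.383). The ranges overlapped for both genes. The median log2 fold change was 0.12 over the 9 members and 0.00 over all genes tested.

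Markers of other cells moved with the treatment in these tumors. In whole tissue, fewer cells of a type and less RNA per cell cannot be told apart. The 6 fibroblast markers, with *Col3a1* the most abundant, summed to 6575, 7364, 6681, 7388 and 6747 CPM in parental controls and to 10787, 7940, 10664, 7486 and 10617 CPM under GC. The GC tumors with the 2 lowest fibroblast sums, tumors 2 and 4, also had the 2 lowest *Rgs2* levels of their group. The same tumors had the fewest genes at equal depth, 15794 and 15799 against 16668 to 16916 in the rest of the group. Their *Tsc22d3* levels were the lowest too, at 174 and 338 CPM against 374 to 461 CPM. The 5 endothelial markers, with *Kdr* the most abundant, summed to 66.5, 54.1, 47.4, 69.9 and 49.4 CPM in controls and to 37.0, 17.9, 28.4, 34.4 and 35.6 CPM under GC. The 7 mural cell markers summed to 253, 174, 234, 203 and 247 CPM in controls and to 139, 153, 161, 154 and 145 CPM under GC, with *Pdgfrb* and *Cspg4* the most abundant in turn. None of the groups overlapped in these 3 sums, and no marker of these lists was at 0. Over the markers the median log2 fold change was 0.34 for fibroblasts, −0.89 for endothelium and −0.08 for mural cells. The lower mural sum lay in *Pdgfrb* (127 and 63.3 CPM by mean), while *Cspg4* (74.2 and 69.7 CPM) and *Notch3* (8.44 and 8.01 CPM) differed little, and *Abcc9* and *Higd1b* had higher means under GC. None of the 18 markers in these lists was a DEG by edgeR, and their part in the *Rgs2* and *Rgs5* values was not tested. The 5 neutrophil markers, mostly *S100a8*, summed to 22.5, 68.1, 239, 33.1 and 1235 CPM in controls and to 14.8, 9.73, 11.2, 22.0 and 38.6 CPM under GC, with overlap, and 2 of the 5 fell as DEGs. The 3 leukocyte markers, with *Laptm5* the most abundant, summed to 641, 601, 508, 690 and 604 CPM in controls and to 549, 499, 365, 648 and 450 CPM under GC, with overlap, and 1 of the 3 fell as a DEG. The 5 smooth muscle markers, mostly *Acta2*, summed to 411 to 652 CPM in controls and 443 to 712 CPM under GC, with overlap. None was a DEG, at a median log2 fold change of 1.50, with *Tagln* at 4.72 and 13.7 CPM by mean. The melanocyte lineage sums overlapped too, at 29.3 to 56.4 CPM and 35.0 to 53.4 CPM, mostly *Mitf*, and none of the 5 markers tested was a DEG, at a median log2 fold change of −1.75. The part of these lists was not tested either. All 6 fibroblast markers had a count in parental cultures, where their sum was 175 to 289 CPM. Most of it was *Col3a1*, at 197 CPM in DMSO and 162 CPM under GC by mean. *Lum* averaged 0.0443 and 0.0232 CPM there, under the limit of 3 counts.

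The genes around RGS proteins were read from 6 lists of 100 genes, 97 of them in the table: other RGS family genes, G alpha subunits, G beta and gamma subunits, effectors, receptor kinases with arrestins and modulators, and chemokine and lipid receptors that couple to Gi. In tumors 83 were tested. GC in parental tumors called 0 of the 83 by edgeR and 3 by DESeq2, a count given without the DESeq2 share over all genes.

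Setting GR KO GC tumors against GR KO controls asks what topical GC does when the receptor gene is edited in the cancer cells. The host cells of these tumors, such as leukocytes and fibroblasts, keep it. None of the 9 members passed the test, and *Rgs2* values of treated and control tumors were interleaved.

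*Rgs2* stood at 113, 90.3, 113, 264 and 81.1 CPM in GR KO control tumors and at 209, 148, 136, 85.1 and 136 CPM under GC. Control tumor 4 was the highest of all 10, and the groups overlapped. The log2 fold change was 0.16 (SE 0.32, edgeR adjusted p = 0.798). Leaving out each tumor in turn gave values from −0.02 to 0.54, with a lowest edgeR adjusted p = 0.215, and the covariate gave −0.38 (edgeR adjusted p = 0.574).

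*Rgs16* stood at 3.90, 1.98, 9.83, 29.1 and 7.26 CPM in GR KO controls and at 23.9, 5.16, 24.7, 6.87 and 23.1 CPM under GC. Control tumor 4 was again the highest of all 10, and treated tumors 2 and 4 lay within the 1.98 to 9.83 CPM of the other controls. These 2 treated tumors had the fewest genes at equal depth of their group, 15561 and 15155. The log2 fold change was 0.75 (SE 0.58, edgeR adjusted p = 0.454). Without control tumor 4 it was 1.57 (edgeR adjusted p = 0.0624), and with the covariate its sign turned, at −0.26 (edgeR adjusted p = 0.881).

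The smallest adjusted p belonged to *Rgs1*, known for damping chemokine receptor signals in lymphocytes. It stood at 0, 1.17, 1.02, 1.47 and 3.60 CPM in GR KO controls and at 1.01 to 5.84 CPM under GC, with overlap (log2 1.09, SE 0.75, edgeR adjusted p = 0.385). Leaving out each tumor in turn gave log2 values from 0.71 to 1.76, with a lowest edgeR adjusted p = 0.180. By edgeR 0 of 9 members were DEGs, 0 had an unadjusted p below 0.05, and DESeq2 called 0. Over all genes tested these shares were 6.42%, 24.5% and 11%. The median log2 fold change was 0.16 over the members and 0.05 over all genes tested.

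In the same comparison 6 of 83 list genes were DEGs, 2 up and 4 down. Over all genes tested 6.42% were DEGs, 431 up and 591 down, so the list's share is near that of all genes. These calls rest on the GR KO control tumors, most of which stood apart, and no value with the covariate is given for them. *Gnaq*, the gene of the Gq alpha subunit, rose from 56.5 ± 10.2 to 98.8 ± 11.8 CPM (SD, n = 5; log2 0.84, SE 0.16, edgeR adjusted p = 0.00533). *Ric8b*, a chaperone of alpha subunits, rose from 2.29 ± 1.90 to 10.2 ± 2.01 CPM (SD, n = 5; edgeR adjusted p = 0.0237). *Rgs12*, a large RGS protein that acts on Gi, fell from 118 ± 13.3 to 72.1 ± 11.1 CPM (SD, n = 5; log2 −0.68, SE 0.18, edgeR adjusted p = 0.0281). The receptor kinase gene *Adrbk1* fell from 316 ± 47.3 to 167 ± 47.3 CPM (edgeR adjusted p = 0.00762, n = 5). The adenylyl cyclase gene *Adcy4* (edgeR adjusted p = 0.0343) and the chemokine receptor gene *Cxcr6* (edgeR adjusted p = 0.0205) fell too. The 3 leukocyte markers, with *Laptm5* the most abundant and none at 0, summed to 1882, 1030, 1003, 817 and 887 CPM in GR KO controls and to 523, 532, 454, 419 and 439 CPM under GC, without overlap. Of these, 1 of 3 fell as a DEG, and the lower sum lay mostly in *Laptm5* (1018 and 395 CPM by mean), the list having a median log2 of −0.59. The 6 T cell markers, with *Cd2* the most abundant, summed to 195, 172, 123, 277 and 115 CPM in controls and to 63.4, 99.1, 76.9, 52.8 and 45.5 CPM under GC, and 2 of the 6 fell as DEGs (median log2 −0.83). The 5 endothelial markers, with *Kdr* the most abundant, summed to 81.9 to 111 CPM in controls and 45.5 to 58.0 CPM under GC, and 1 of the 5 fell as a DEG (median log2 −0.54). Neither of these sums overlapped between the groups. Fibroblast markers went the other way.

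The 6 fibroblast markers, with *Col1a1* the most abundant and none at 0, summed to 3505, 3795, 4412, 6848 and 4986 CPM in GR KO controls and to 9734, 7934, 11165, 7081 and 10482 CPM under GC. The groups did not overlap, and 4 of the 6 markers rose as DEGs (median log2 0.84). The part of these 4 lists in the values of *Rgs2*, *Cxcr6* and the other genes was not tested.

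Whether GC acts on RGS genes to a different extent in parental and GR KO tumors is the difference of the foregoing effects, tested within the same fit. A positive value means a larger rise, or a smaller fall, in parental tumors. *Rgs2* and *Rgs16* had the largest differences, in opposite directions, and neither passed the edgeR threshold.

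For *Rgs2* the difference was 1.72 (SE 0.46, edgeR adjusted p = 0.0843). GR KO control tumor 4 bears on this value, since its *Rgs2* level of 264 CPM exceeds the 81.1 to 113 CPM of the rest of its group. Without that tumor the difference was 1.35 (edgeR adjusted p = 0.0447). It was 1.76 in DESeq2 (adjusted p = 0.0103) and 2.12 with the covariate (edgeR adjusted p = 0.0153). For *Rgs16* the difference was −2.30 (SE 0.83, edgeR adjusted p = 0.142), and −3.12 without GR KO control tumor 4 (edgeR adjusted p = 0.0266). *Rgs4* had a difference of 1.29 (SE 0.62, edgeR adjusted p = 0.248).

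By edgeR 0 of 9 members were DEGs for the difference, 3 had an unadjusted p below 0.05, and DESeq2 called 1, *Rgs2*. The shares over all genes tested were 0.195%, 20.1% and 4.92%. Of the 83 list genes edgeR called 0 and DESeq2 called 6. The median difference was −0.15 over the members and −0.04 over all genes tested.

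GR KO and parental tumors under control cream differ in the cancer cells' receptor gene, which cannot be told apart from the clone, with no GC added. The members split between genes with higher and with lower values in GR KO controls. None passed the test.

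*Rgs4* stood at 3.25, 18.6, 7.11, 13.9 and 5.55 CPM in GR KO controls against 2.97, 6.73, 3.57, 5.06 and 3.82 CPM in parental controls. GR KO tumors 2, 3 and 4 were above every parental control and the others overlapped them (log2 1.11, SE 0.44, edgeR adjusted p = 0.167). *Rgs10*, a small Gi regulator abundant in myeloid cells and platelets, stood at 59.1, 42.8, 65.7, 80.0 and 42.7 CPM against 71.7, 106, 70.6, 66.9 and 70.2 CPM. GR KO control tumors 1, 2, 3 and 5 lay below every parental control and tumor 4 lay within their range (log2 −0.43, SE 0.19, edgeR adjusted p = 0.199). Parental control tumor 2, at 106 CPM, was far above the 66.9 to 71.7 CPM of the rest of its group.

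*Rgs2* had a log2 fold change of −0.47 (SE 0.32, edgeR adjusted p = 0.419), which ranged from −0.85 to 0.10 over the alternative settings. *Rgs18*, a gene of platelets and megakaryocytes, had 25, 0, 3, 43 and 1 counts in GR KO controls and 22, 81, 29, 52 and 2 counts in parental controls. The counts of both groups ranged widely and overlapped. Its log2 fold change was −1.35 (SE 1.05, edgeR adjusted p = 0.487), which ranged from −1.93 to −0.47 over the alternative settings. The 6 platelet markers summed to 152 to 301 CPM in GR KO controls and to 228 to 324 CPM in parental controls, with *Pf4* the most abundant and *Gp9* and *Gp1ba* at 0. Their part in the *Rgs18* values was not tested.

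By edgeR 0 of 9 members were DEGs between control tumors, 2 had an unadjusted p below 0.05, and DESeq2 called 0. Over all genes tested the shares were 2.25%, 20% and 6.29%. Over the members the median log2 fold change was −0.43, and over all genes tested it was −0.04.

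Of the 83 list genes, 5 were DEGs between control tumors, 3 up and 2 down in GR KO. Over all genes tested 2.25% were DEGs, 201 up and 157 down. These calls too rest on the GR KO control tumors, most of which stood apart, and are given without the covariate. *Rgs17*, a Gi and Gq regulator, was at 17.7 ± 4.77 CPM in GR KO and 7.36 ± 2.31 CPM in parental controls (SD, n = 5; log2 1.26, SE 0.31, edgeR adjusted p = 0.0347). *Adcy4* and *Adrbk1* were higher in GR KO controls (edgeR adjusted p = 0.0331 and 0.0439), and *Gnaq* and *Adcy3* were lower (edgeR adjusted p = 0.0288 and 0.0240). This comparison shares the GR KO control tumors with that of GC in GR KO tumors, so their calls are not independent. The 3 leukocyte markers (817 to 1882 CPM against 508 to 690 CPM) and the 5 endothelial markers (81.9 to 111 CPM against 47.4 to 69.9 CPM) summed higher in GR KO than in parental controls without overlap. So did the 7 macrophage markers, mostly *C1qa* (5596 to 8946 CPM against 3639 to 5320 CPM), and the 5 smooth muscle markers, mostly *Acta2* (864 to 1112 CPM against 411 to 652 CPM). Single genes carry 3 of these sums. *Laptm5* averaged 1018 CPM in GR KO against 509 CPM in parental controls while *Ptprc* stood at 45.9 and 45.4 CPM, and the leukocyte list had a median log2 of 0.12. *C1qa* averaged 4623 against 2359 CPM while *Emr1* and *Mrc1* had lower means in GR KO, and the macrophage list had a median log2 of 0.06 and 0 DEGs. *Acta2* is no mark of host cells here, since the smooth muscle list summed to 2351 to 5472 CPM in cultures, mostly *Acta2*. As DEGs, 1 leukocyte, 1 endothelial and 2 smooth muscle markers were higher in GR KO controls, and 1 fibroblast and 1 keratinocyte marker were lower. The part of these lists in the values was not tested.

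GR KO GC tumors set against parental GC tumors hold the drug constant and vary the genotype of the cancer cells, which cannot be told apart from the clone. *Rgs2* was lower in every GR KO tumor under GC. The parental GC tumors are shared with the first comparison, so the *Rgs2* values of both rest on the same 5 tumors.

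*Rgs2* stood at 209, 148, 136, 85.1 and 136 CPM in GR KO GC tumors and at 783, 264, 1085, 464 and 739 CPM in parental GC tumors. The groups did not overlap, with parental tumor 2 nearest to the GR KO values. The log2 fold change was −2.20 (SE 0.33, edgeR adjusted p = 0.00153), or 4.58-fold lower. *Rgs2* was again the single DEG (1 of 9) where 0.634% of all genes tested were DEGs. Neither group belongs to the libraries that stood apart, and in a fit of these groups alone the log2 fold change was −2.20 (edgeR adjusted p = 0.00891).

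*Rgs16* was higher in GR KO GC tumors at a log2 of 1.37 (SE 0.59, edgeR adjusted p = 0.382), and with the covariate it passed at 1.63 (edgeR adjusted p = 0.0451). Replicates 2 and 4 were the low *Rgs16* values in both groups, at 1.97 and 2.31 CPM in parental and 5.16 and 6.87 CPM in GR KO tumors, and replicates 2 and 4 also had the fewest genes at equal depth in both. *Rgs5* had a log2 of 0.86 (SE 0.38, edgeR adjusted p = 0.391), with 4 of 5 GR KO tumors above every parental tumor. The 7 mural cell markers summed to 236, 168, 209, 282 and 323 CPM in GR KO GC tumors and to 139 to 161 CPM in parental GC tumors, without overlap, *Pdgfrb* and *Cspg4* being the most abundant and none at 0. By mean, *Pdgfrb* (129 and 63.3 CPM), *Cspg4* (90.9 and 69.7 CPM), *Mcam* and *Kcnj8* were higher in GR KO GC tumors. *Abcc9*, *Higd1b* and *Notch3* had lower means there, and *Cspg4* also averaged 135 to 218 CPM in cultures. The 5 endothelial markers summed to 45.5 to 58.0 CPM against 17.9 to 37.0 CPM, also without overlap. The 5 neutrophil markers, mostly *S100a8*, summed to 49.1 to 228 CPM against 9.73 to 38.6 CPM, likewise apart. Median log2 values were 0.40 for the mural, 0.83 for the endothelial and 2.07 for the neutrophil list, each with 0 DEGs by edgeR. The part of these markers in the *Rgs5* and *Rgs2* values was not tested.

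The 8 other members had edgeR adjusted p between 0.382 and 0.989. Median log2 fold changes were −0.01 over the 9 members and 0.01 over all genes tested. Of the 83 list genes edgeR called 0 and DESeq2 called 4, a count given without the DESeq2 share over all genes.

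**Figure D2:**
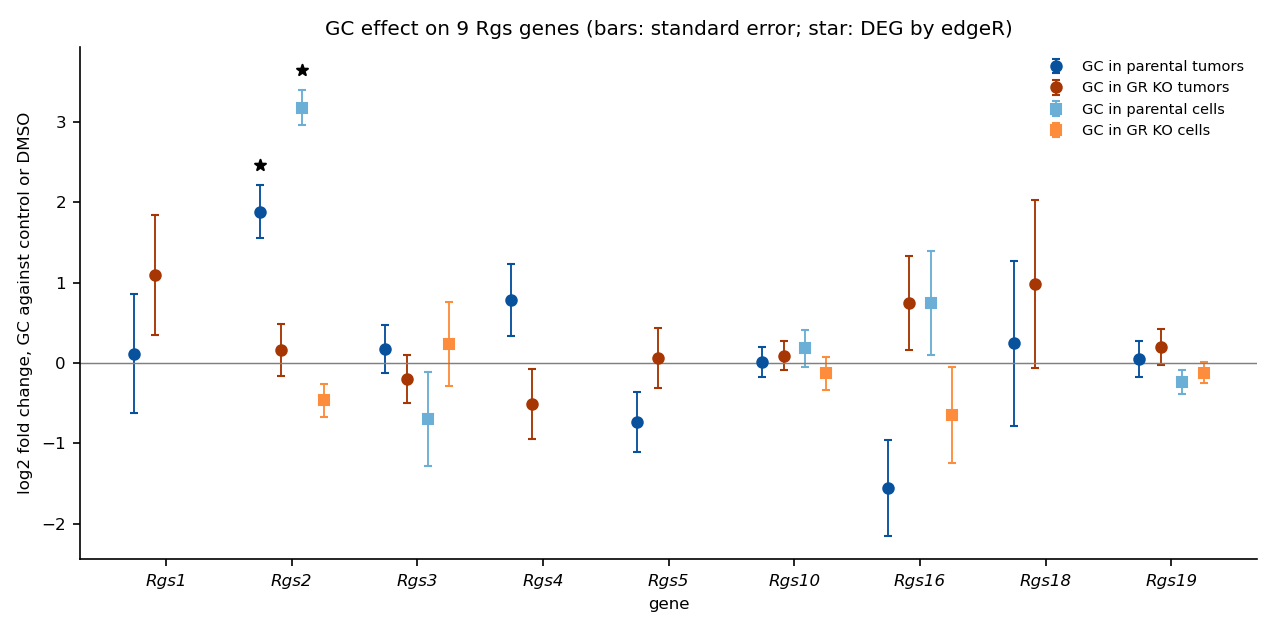
Log2 fold change under GC (bars: SE) of each *Rgs* gene that was tested in parental and GR KO tumors and cells, with a star where edgeR called a DEG. *Rgs2* carries the only stars, at 1.88 in parental tumors and 3.17 in parental cells.

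Cultured cells show the drug's effect on cancer cells without host cells. T cell markers were at 0 in all 11 cultures, and the 3 leukocyte markers summed to at most 0.878 CPM. Of the 5 members tested, *Rgs2* rose under GC in parental cells by far more than its spread.

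*Rgs2* stood at 14.4, 8.09 and 10.5 CPM in parental cells in DMSO (216, 129 and 176 counts). Under GC it stood at 101 and 99.0 CPM (1421 and 2137 counts). Both treated cultures were above all 3 DMSO cultures, and the treated cultures lay close together. Its log2 fold change was 3.17 (SE 0.22, edgeR adjusted p = 2.62e-05), or 9.03-fold. *Rgs2* was the single DEG among the members (1 of 5 tested), where 0.878% of all genes tested were DEGs.

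The 4 other members tested had edgeR adjusted p between 0.680 and 0.784. *Rgs16* stood at 8.37, 3.01 and 11.2 CPM in DMSO and at 16.9 and 8.57 CPM under GC, with overlap (log2 0.75, SE 0.65, edgeR adjusted p = 0.718). *Rgs19*, a Gi regulator, stood at 34.5, 28.9 and 31.7 CPM in DMSO and at 25.5 and 28.5 CPM under GC. Both GC cultures lay just below the DMSO cultures, a gap that did not pass the test (log2 −0.24, SE 0.15, edgeR adjusted p = 0.680). Of 54 list genes tested in cells, edgeR called 0 and DESeq2 called 1, again without the DESeq2 share over all genes. Over the 5 members tested the median log2 fold change was 0.18, and over all genes tested it was 0.00.

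In GR KO cells the same drug was given to a clone with an edited receptor gene. No member passed the test there. *Rgs2* stood at 7.39, 6.18 and 6.17 CPM in DMSO (137, 126 and 113 counts) and at 4.68, 5.09 and 4.18 CPM under GC (80, 108 and 67 counts). All 3 treated cultures lay below all 3 DMSO cultures, opposite in sign to parental cells. Its log2 fold change was −0.46 (SE 0.20, edgeR adjusted p = 0.976). By edgeR 0 of 5 members were DEGs, 1 had an unadjusted p below 0.05 (*Rgs2*), and DESeq2 called 0. Over all genes tested these shares were 0%, 1.89% and 0%. Of 54 list genes edgeR and DESeq2 called 0. Median log2 fold changes were −0.13 over the 5 members tested and 0.02 over all genes tested.

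The difference of the GC effects between parental and GR KO cells tests whether the response depends on the edited clone. A positive value means a larger rise, or a smaller fall, in parental cells. For *Rgs2* it was 3.64 (SE 0.30, edgeR adjusted p = 0.000332), or 12.5-fold. It stayed between 3.48 and 3.88 when each of the 11 cultures was left out in turn. *Rgs2* was the single DEG (1 of 5 tested) where 0.295% of all genes tested were DEGs. The 4 other members tested had edgeR adjusted p between 0.576 and 0.799. The median difference was 0.31 over the 5 members tested and −0.03 over all genes tested, and edgeR and DESeq2 called 0 of 54 list genes.

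GR KO and parental cells in DMSO differ by the edited receptor and by everything else that sets the clone apart. *Rgs2* was low in both, and lower in GR KO. At 7.39, 6.18 and 6.17 CPM, the 3 GR KO cultures lay below the 14.4, 8.09 and 10.5 CPM of parental cells, and the nearest values were less than 1 CPM apart. Its log2 fold change was −0.75 (SE 0.20, edgeR adjusted p = 0.0393). *Rgs2* was the single DEG (1 of 5 tested) where 8.22% of all genes tested were DEGs. This call was fragile: it was kept in 1 of 6 fits that left out a culture and was lost in a fit of these groups alone (edgeR adjusted p = 0.117). It was also lost with the replicate number as a block.

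*Rgs10* stood at 25.2, 25.7 and 32.3 CPM in GR KO and at 22.5, 13.2 and 21.4 CPM in parental cells in DMSO. All GR KO cultures were above all parental cultures, below the threshold for a DEG (log2 0.53, SE 0.21, edgeR adjusted p = 0.137). *Rgs4* had 7, 11 and 7 counts in parental cells in DMSO, 4 and 0 counts in parental cells under GC, and 0 counts in all 6 GR KO cultures. These counts were too few for the test. Over the 5 members tested the median log2 fold change was −0.10, and over all genes tested it was 0.01.

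Of 54 list genes, 11 were DEGs between the DMSO cultures, 3 up and 8 down in GR KO. *Rgs17* was at 15.7 ± 2.24 CPM in GR KO and 8.66 ± 0.57 CPM in parental cells (SD, n = 3; log2 0.85, SE 0.20, edgeR adjusted p = 0.0211). *Gnai1*, a Gi alpha subunit (log2 2.22, SE 0.57), and the complement receptor gene *C3ar1* (log2 1.74, SE 0.26) were higher too. The modulator gene *Gpsm3* (log2 −3.75, SE 0.63), the gamma subunit gene *Gng2* (log2 −1.01, SE 0.19), the receptor gene *P2ry14* (log2 −3.56, SE 0.82) and the arrestin gene *Arrb1* (log2 −1.24, SE 0.32) were lower. All 4 effector DEGs were lower: *Adcy3*, *Plcb1*, *Adcy7* and *Adcy9*, at log2 −2.62, −0.96, −0.67 and −1.42. Over all genes tested 8.22% were DEGs, 273 up and 757 down in GR KO, so most DEGs of this comparison were lower too.

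GR KO and parental cells were also compared with both under GC, so these values share cultures with the GC comparisons above. Among the members *Rgs2* differed most. Its 4.68, 5.09 and 4.18 CPM in GR KO cells lay far below the 101 and 99.0 CPM of parental cells, a log2 fold change of −4.39 (SE 0.23, edgeR adjusted p = 9.41e-07), or 20.9-fold lower. This was 1 of 5 members tested, where 5.55% of all genes tested were DEGs. *Rgs16* stood at 8.83, 2.73 and 1.81 CPM in GR KO against 16.9 and 8.57 CPM in parental cells, so that GR KO culture 1 overlapped the lower parental culture (log2 −1.49, SE 0.65, edgeR adjusted p = 0.254). Without that culture the log2 fold change was −2.42 (edgeR adjusted p = 0.0329). Median log2 fold changes were −0.05 over the 5 members tested and 0.02 over all genes tested.

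Of 54 list genes 7 were DEGs between GC cultures, 3 up (*Rgs17*, *Gnai1* and *C3ar1*) and 4 down (*Adcy3*, *Gpsm3*, *Gng2* and *Gng11*). Over all genes tested 5.55% were DEGs, 221 up and 474 down in GR KO. *Rgs17* was at 15.4 ± 3.60 CPM in GR KO (SD, n = 3) and 4.98 ± 0.03 CPM in parental cells (SD, n = 2), a log2 of 1.66 (SE 0.24, edgeR adjusted p = 0.00142). *Rgs17* was a DEG in 3 of the 4 comparisons of GR KO with parental samples. In the fourth, GC-treated tumors, it was not (log2 0.57, SE 0.31, edgeR adjusted p = 0.480).

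Whole tumors were compared with cultured cells of the same genotype to see which RGS transcripts the cultures lack. Tumors and cultures differ in host cells, growth, handling and library set, which cannot be told apart. All 31 samples entered 1 fit of 16273 genes. *Rgs1*, *Rgs4*, *Rgs5* and *Rgs18* were at or near 0 in cultures, while *Rgs10* stood at 13.2 CPM or more in each of them.

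*Rgs1* and *Rgs18* had 0 counts in all 11 cultures. In parental control tumors *Rgs1* stood at 2.97, 4.36, 1.11, 0.598 and 1.23 CPM, at least 10.8-fold higher by mean than the limit of 3 counts in the DMSO cultures. *Rgs18* stood at 1.39, 3.92, 1.46, 2.83 and 0.0721 CPM there, at least 10.2-fold higher by mean. The last of these values is 2 counts, so *Rgs18* was near the limit of detection in parental control tumor 5. In GR KO tumors the bounds were at least 9.20-fold for *Rgs1* and at least 4.85-fold for *Rgs18*, and 1 tumor had 0 counts for each gene. Without GR KO control tumor 5 the bound for *Rgs1* was 5.79-fold, and without GR KO control tumor 1 that for *Rgs18* was 3.2-fold.

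*Rgs5* had 1, 0 and 5 counts in parental cells in DMSO and 0 in the other 8 cultures, against 4.73, 9.97, 9.20, 13.3 and 11.8 CPM in parental control tumors. It was higher in parental tumors at a log2 of 6.23 (SE 0.76) and at least 66-fold higher in GR KO tumors. The log2 of 6.23 rests on few culture counts, and without DMSO culture 3, the one with 5 counts, it was 7.98. *Rgs4* was higher in parental tumors at a log2 of 3.06 (SE 0.68) and at least 61-fold higher in GR KO tumors. Both genes entered this fit through their tumor counts, so their direction follows from the filter and no p-value is given. For *Rgs4* and *Rgs5* every tumor was above every culture.

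*Rgs3*, a member that acts on Gi and Gq and has long isoforms, stood at 15.9 to 29.3 CPM in parental control tumors and at 2.79, 6.34 and 1.56 CPM in parental cells in DMSO (log2 2.62, SE 0.43, edgeR adjusted p = 7.50e-06). Without DMSO culture 2, at 6.34 CPM, the log2 was 3.33. *Rgs2* and *Rgs10* were also higher in parental tumors, at log2 values of 4.03 (SE 0.42) and 2.02 (SE 0.23). In GR KO samples the log2 values were 4.33 (SE 0.43) for *Rgs2*, 4.09 (SE 0.46) for *Rgs3* and 1.07 (SE 0.22) for *Rgs10*. No tumor overlapped a culture for these 3 genes in either genotype.

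*Rgs19* stood at 22.4, 38.0, 27.6, 35.6 and 26.4 CPM in parental control tumors and at 34.5, 28.9 and 31.7 CPM in parental cells, which lay inside the tumor range (log2 −0.08, SE 0.23, edgeR adjusted p = 0.799). In GR KO it stood at 17.3 to 33.5 CPM in tumors and 33.5 to 36.6 CPM in cells, every tumor under the lowest culture (log2 −0.39, SE 0.23, edgeR adjusted p = 0.145). *Rgs16* overlapped between tumors and cells in both genotypes, at log2 1.35 (SE 0.72, edgeR adjusted p = 0.120) and 0.56 (SE 0.70, edgeR adjusted p = 0.504). The latter, in GR KO, turned to −0.33 without GR KO control tumor 4. In the parental groups fitted alone it passed, at 1.33 (edgeR adjusted p = 0.0225).

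*Rgs1*, *Rgs4*, *Rgs5* and *Rgs18* entered this fit through their tumor counts, so their direction follows from the filter, and a count or median that includes them gives no measure of the members. Of the 5 members that also passed the filter among cells, 3 were DEGs in each genotype (*Rgs2*, *Rgs3* and *Rgs10*), all higher in tumors, where 46.7% of all genes tested were DEGs in parental and 54.8% in GR KO samples. A share of 3 in 5 is near that of all genes. The median log2 fold change of these 5 was 2.02 in parental samples and 1.07 in GR KO samples, against 0.37 and 0.33 over all genes tested.

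Host cell markers moved with these differences. The 6 T cell markers, with *Cd2* the most abundant, summed to 71.6 to 153 CPM in parental and 115 to 277 CPM in GR KO control tumors. The 3 leukocyte markers, with *Laptm5* the most abundant, summed to 508 to 690 CPM in parental and 817 to 1882 CPM in GR KO control tumors. The platelet marker *Pf4* averaged 257 CPM in parental and 203 CPM in GR KO control tumors and was at 0 in every culture, while the platelet list summed to 5.05 to 18.4 CPM in cultures, mostly *Gp1bb*. Among mural cell markers, *Abcc9* and *Higd1b* were at 0 in all cultures and *Cspg4* averaged 135 to 218 CPM there, so the list's sum of 134 to 270 CPM in cultures overlapped that of tumors. The part of these markers in the members' differences was not tested.

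**Figure D3:**
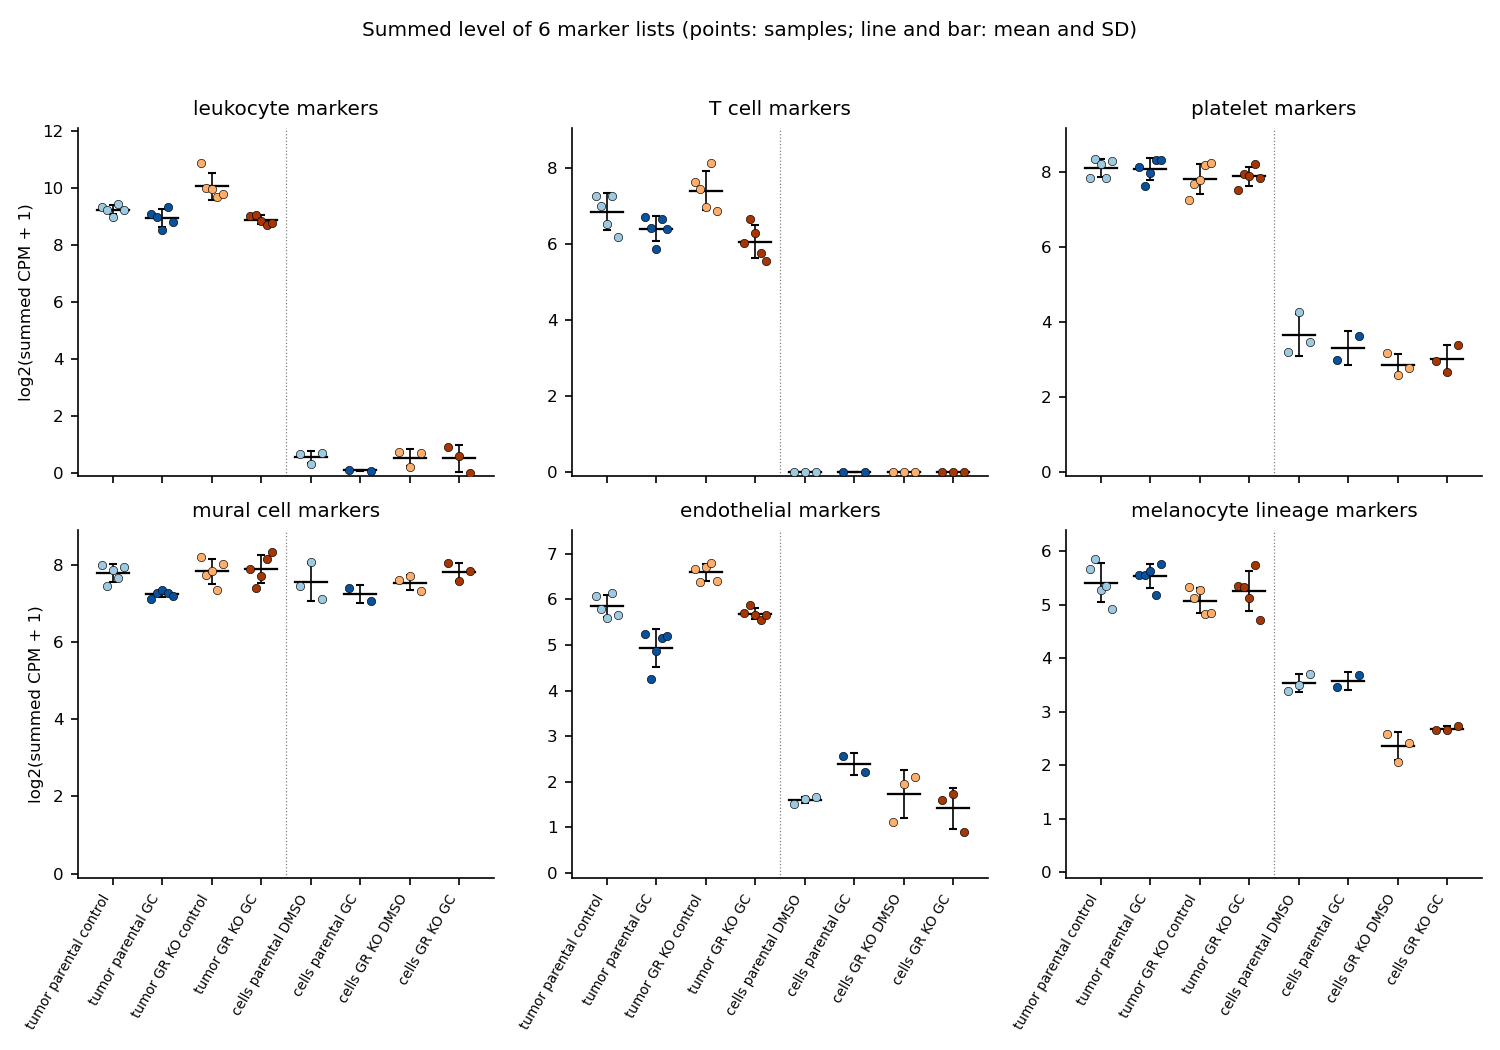
Summed level of 6 marker lists in each sample, as log2(summed CPM + 1), with a line at the group mean and a bar for the SD. T cell markers are at 0 in all 11 cultures, and the mural list sums to 139 to 161 CPM in parental GC tumors, below the 174 to 253 CPM of parental controls.

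Of 84 list genes tested across tumors and cells, 44 were DEGs in parental samples, 41 of them higher in tumors, and 55 in GR KO samples, 46 of them higher in tumors. The receptors that couple to Gi had the largest count in both genotypes, 18 of 21 higher in parental and 19 of 21 higher in GR KO tumors and 0 lower. Only 7 of these 21 passed the filter among cells alone, and 54 of all list genes did. The others entered through their tumor counts, which largely fixes their direction, so these counts give no measure of the list. *Cx3cr1*, a chemokine receptor of monocytes and macrophages, stood at 565 ± 128 CPM (SD, n = 5) in parental control tumors and 1.63 ± 0.32 CPM (SD, n = 3) in parental cells. *C3ar1* stood at 167 ± 46.8 CPM (SD, n = 5) and 8.02 ± 2.48 CPM (SD, n = 3) in these groups. The 7 macrophage markers found in the table, with *C1qa* the most abundant in tumors, summed to 3639 to 5320 CPM in parental control tumors and at most 4.07 CPM in cultures. Their part in the receptor genes' values was not tested.

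Over the 8 groups the members differed in how far their levels could be ordered. *Rgs2* ran from parental GC tumors (667 ± 315 CPM) through parental control (180 ± 44.5 CPM), GR KO GC (143 ± 44.1 CPM) and GR KO control tumors (132 ± 75.0 CPM) to parental cells under GC (99.8 ± 1.21 CPM, SD). Below these came parental cells in DMSO (11 ± 3.15 CPM), GR KO cells in DMSO (6.58 ± 0.70 CPM) and GR KO cells under GC (4.65 ± 0.45 CPM, SD). The 3 control or GR KO tumor groups and the GC-treated parental cells overlapped their neighbours, and the other 4 of 7 steps in this order had no overlap. GC-treated parental cells lay within the ranges of the GR KO tumor groups.

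*Rgs10* was highest in the parental tumors (77.9 ± 12.7 CPM under GC and 77.1 ± 16.3 CPM in controls, SD), followed by GR KO tumors (60.2 ± 5.00 and 58.0 ± 15.9 CPM) and by the 4 culture groups (19.0 to 27.7 CPM by mean). It had 2 steps without overlap, from parental control to GR KO GC tumors and from tumors to cultures. *Rgs4* had 2 such steps, from tumors to parental cells in DMSO and from those to parental cells under GC. *Rgs3* and *Rgs5* each had 1, between tumors and cultures. *Rgs1*, *Rgs16*, *Rgs18* and *Rgs19* had none, since every neighbour overlapped the next. *Rgs1* and *Rgs18* reached 0 in a GR KO control tumor, and so that group overlapped the cultures. *Rgs19* group means ran from 27.0 to 35.4 CPM, both ends being culture groups.

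The genes whose levels ran most like each member over the 20 tumors were found by Pearson's r of log2(CPM + 1), which the tumors' shared depth, gene number and group membership also enter. *Rgs2* was most like *Gad2* (r = 0.877, rho = 0.823), *Angpt1* (r = 0.870, rho = 0.720) and *Cp* (r = 0.861, rho = 0.821). *Rgs16* had the highest values of all members, with *Manf* (r = 0.958, rho = 0.938), *Erp44* (r = 0.954, rho = 0.937) and *Actr3* (r = 0.951, rho = 0.925).

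*Rgs3* was most like *Gabarapl1*, *Eif4e2* and *Slc35a4* (r = 0.885, 0.877 and 0.867). *Rgs5* was most like *Skap2*, *Gse1* and *Srsf2* (r = 0.875, 0.867 and 0.867). *Rgs1* was most like *Prkdc*, *Ankrd32* and *Gm7809* (r = 0.836, 0.829 and 0.789). For *Rgs19* the genes were *D2hgdh*, *Nfs1* and *Mob3c* (r = 0.826, 0.812 and 0.792), and for *Rgs10* they were *Isyna1*, *Olfml2a* and *Osbp2* (r = 0.807, 0.786 and 0.774). For *Rgs4* they were *Dok5*, *Vsig2* and *1700061G19Rik* (r = 0.801, 0.770 and 0.733), and for *Rgs18* *Ccdc90b*, *Ccdc173* and *Xylb* (r = 0.771, 0.753 and 0.751). Ranking by Spearman's rho gave other genes in nearly every case, so the names depend on the measure.

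Of the 9 members, 6 lie on chromosome 1 (GRCm38 coordinates, GENCODE M21). *Rgs2* (chr1:143999338-144004161), *Rgs1* (chr1:144242296-144249242) and *Rgs18* (chr1:144752683-144775435) are on the minus strand, with *Rgs13* and *Rgs21* between them. *Rgs2* was a DEG under GC in parental tumors and its cluster neighbours *Rgs1* and *Rgs18* were not, at log2 values of 0.12 (SE 0.74) and 0.24 (SE 1.02). *Rgs5* (chr1:169655501-169695813, plus strand) and *Rgs4* (chr1:169741477-169747642, minus strand) are neighbours, 45664 bp apart. *Rgs16* (chr1:153740349-153745468, plus strand) lies 40026 bp from *Rgs8*. *Rgs3* is on chromosome 4, *Rgs10* on chromosome 7 and *Rgs19* on chromosome 2. Exons of *Rgs16* overlap the antisense gene *Gm28513* over 236 bp, and *Gm28513* is not in the count table. No strand setting of the count was named, and where none is, the methods point to defaults, under which featureCounts reads both strands.

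Promoter windows from 250 bases before to 50 bases after the gene start were available from RefSeq (GRCm38.p6) for 7 members, in 10 windows. *Rgs1* and *Rgs18* had none. 4 motifs were searched on both strands: the core of the GC response element ACANNNTGT (in 6.85% of 32851 promoters), the AP-1 site TGANTCA (7.81%), the cAMP response element TGACGTCA (1.79%) and the TATA box TATAAA (13.6%). The first 3 had no match in any member's window. TATAAA was found in *Rgs4* and in 2 windows of *Rgs3*. The window of *Rgs2*, the member that rose under GC in tumors and cells, is shown (chr1:144004100-144004399, minus strand, 5′ to 3′, in lower case as it holds none of the 4 motifs). A lack of these letters in 300 bases says nothing of sites elsewhere.
Rgs2: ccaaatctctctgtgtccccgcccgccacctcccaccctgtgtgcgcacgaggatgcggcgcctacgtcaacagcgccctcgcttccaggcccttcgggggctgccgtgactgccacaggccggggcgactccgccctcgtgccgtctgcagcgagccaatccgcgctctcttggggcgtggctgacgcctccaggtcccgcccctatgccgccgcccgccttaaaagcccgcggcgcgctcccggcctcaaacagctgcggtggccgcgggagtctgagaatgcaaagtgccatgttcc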

How the data were processed

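Bulk RNA from 20 mouse melanomas and 11 cultures was sequenced from 3′ ends. The authors used Trim Galore for trimming, STAR (GRCm38) for alignment and featureCounts for counting, and the deposited table gives the read count of each gene. The 9 *Rgs* genes were taken by symbol. These genes, the gene lists and the marker lists were chosen with earlier results of these data known. Tests used edgeR 4.0.16 (quasi-likelihood, TMM) in R 4.3.3, keeping genes with at least 0.5 CPM in at least 3 samples of the fit. The 4 tumor groups, the 4 culture groups and all 8 groups were fitted apart. SE is the absolute log2 fold change over the square root of F. Named genes were the members, list DEGs (at most 4 per list with the smallest adjusted p), *Nr3c1*, *Tsc22d3* and the 3 genes most like each member in tumors. Alternatives were DESeq2 1.42.0, its size factors in edgeR, no filter, a replicate block, the compared groups alone, other fold thresholds, each replicate left out, and, after seeing the data, a covariate of genes detected at equal depth. Python 3.11.15 with pandas 2.3.3 made the summaries. The fit was tested on simulated data.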

Additional observations from a re-analysis of the deposited data

Results flagged for a closer look

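*Rgs2* in GR KO control tumor 4 was a sample far from the others of its group: it stood at 264 CPM where the other 4 tumors held 81.1 to 113 CPM. On the log2(CPM + 1) scale, the gap to its nearest neighbour was 0.720 of the group's range. *Rgs10* in parental control tumor 2 was likewise far from its group, at 106 CPM against 66.9 to 71.7 CPM, with a gap of 0.851 of the range in log2(CPM + 1). This gap was read in 36 sets of 5 tumors (9 genes in 4 groups), and its limit marks about 1 in 20 such sets by chance.

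A difference of GC effects between parental and GR KO cells picked out *Rgs2*, at a log2 difference of 3.64, and *Tsc22d3*, at a log2 difference of 3.14.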

How the results depend on the processing

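Of 1477 values of single members under the alternatives, 1461 stayed on their side of the threshold, 8 lost a call, 8 gained one and 0 were called in the opposite direction. Of 194 counts of members called, 180 were unchanged and 14 moved. Among 1301 refitted values, 62 changed sign, each of a value called in neither fit.

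The members called for GC in parental tumors went from 1 to 2 with the covariate of detected genes, which added *Rgs16*. For the difference of GC effects between tumors the count went from 0 to 1 in DESeq2 and to 1 with the covariate, *Rgs2* in both, and ran from 0 to 2 when each tumor was left out (2 without GR KO control tumor 4). For GR KO against parental GC tumors it went from 1 to 2 with the covariate. For GR KO against parental cells in DMSO it went from 1 to 0 with a fold of at least 2, which the *Rgs2* value of −0.75 does not reach, to 0 with the compared groups alone (fewer samples), and from 0 to 1 over the cultures left out. For GR KO against parental GC cells it ran from 1 to 2, with 2 when GR KO culture 1 was left out. Except for the fold, the cause was not tested.

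Replicate numbers do not mark pairs that the labels describe. With the replicate number as a block, the count for GR KO against parental cells in DMSO went from 1 to 0 (*Rgs2* edgeR adjusted p = 0.0562). As a check of the pairing, samples with the same number were correlated after group means were removed. The mean r was 0.0583 over 30 tumor pairs and 0.0198 over 15 culture pairs, from −0.544 to 0.415 in tumors. Each sample's r was also averaged by number over the other groups. This mean was highest for the sample's own number in 7 of 20 tumors and 3 of 11 cultures. The 5 pairs of parental with GR KO tumors under GC were all positive (0.0998 to 0.389), and with the block *Rgs16* there had a log2 of 1.36 (edgeR adjusted p = 0.260). The block was not applicable to tumors against cells.

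DESeq2 size factors moved the median of all genes by at most 0.0894 log2. Floors of 3 counts limit *Rgs1*, *Rgs4*, *Rgs5* and *Rgs18* in cultures, and PCR copies are not told from molecules.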
